A study of Homo sapiens with 3 samples.

Results

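Contacts that a promoter made with the body of its own gene were described in cardiomyocytes derived from human embryonic stem cells (hESC-CMs). Of 200809 contacts called in at least 1 of 3 replicates, 98665 joined a promoter fragment to a fragment on the same chromosome, at most 1 Mb away, that was never itself listed as a promoter fragment. In 7406 of these, or 7.51% (95% Wilson interval 7.34 to 7.67), the midpoint of the promoter-interacting region (PIR) lay inside a protein-coding gene that starts in the promoter fragment. Another 50263 lay inside some other protein-coding gene and 40996 outside protein-coding genes. The choice used positions and gene annotation alone, and every contact in it had a score of at least 5 in some replicate.

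The cells came from the WA09 (H9) human embryonic stem cell line, were differentiated to cardiomyocytes, and were studied untreated as 3 biological replicates of 1 condition. Promoter capture Hi-C (PCHi-C) cuts crosslinked chromatin with the restriction enzyme HindIII, joins ends that lie close in the nucleus, and keeps by hybridisation the products that hold an annotated promoter. Each contact carries a CHiCAGO score, which weighs its reads against a background that falls with distance, and contacts below 5 were not listed. No other cell type and no control condition was among the samples, contact data hold no transcript levels with which the cardiomyocyte label could be checked, and all 3 replicates share 1 cell line. The paper reports that cardiomyocytes were enriched in a medium with lactate in place of glucose. Before fixation its authors checked the cells through the markers TNNT2 and myosin heavy chain, and asked for high but not full purity.

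A gene body can hold enhancers for its own promoter, most often in introns, and a contact between promoter and intron is one way in which such an element could be seen. Contacts inside a gene have also been tied to the way a long transcription unit folds. CTCF, a zinc-finger protein that binds an asymmetric DNA consensus and stops the cohesin ring, lies at the base of many loops, where its consensus on each side points into the loop.

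The sequences below show the CTCF consensus in interacting fragments of own gene body contacts that were called in all 3 replicates. They are 120-base stretches of GRCh37, written along the strand that holds the match, and the capitals mark the 14 bases of the consensus. The first 5 were the contacts of highest mean score in which the consensus pointed back to the promoter and the stretch lay inside a gene and in no annotated exon. These contacts were chosen after their values were seen.
ANKRD6, minus strand of chr6:90319914-90320033: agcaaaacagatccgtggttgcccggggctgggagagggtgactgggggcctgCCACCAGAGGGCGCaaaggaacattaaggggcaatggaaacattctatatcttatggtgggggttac
PLCL1, minus strand of chr2:199161530-199161649: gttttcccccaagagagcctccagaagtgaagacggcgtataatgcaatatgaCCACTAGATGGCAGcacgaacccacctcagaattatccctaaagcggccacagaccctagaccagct
SPATS2, minus strand of chr12:49907993-49908112: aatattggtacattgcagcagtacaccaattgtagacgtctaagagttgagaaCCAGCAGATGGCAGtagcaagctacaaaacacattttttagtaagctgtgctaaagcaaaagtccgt
TCF7L1, minus strand of chr2:85512712-85512831: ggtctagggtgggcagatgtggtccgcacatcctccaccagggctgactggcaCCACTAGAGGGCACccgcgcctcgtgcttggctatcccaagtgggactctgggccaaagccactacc
SLIT3, plus strand of chr5:168414703-168414822: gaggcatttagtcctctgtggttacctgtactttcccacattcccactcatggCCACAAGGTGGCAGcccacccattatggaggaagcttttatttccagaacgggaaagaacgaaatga
In the 4 genes on the plus strand, here ANKRD6, PLCL1, SPATS2 and TCF7L1, the match lay on the minus strand, and in SLIT3, which is read from the minus strand, it lay on the plus strand, so that each pointed towards the start of its gene. As examples of the other direction, 2 contacts follow in which the consensus pointed away from the promoter.
ATXN1, minus strand of chr6:16331677-16331796: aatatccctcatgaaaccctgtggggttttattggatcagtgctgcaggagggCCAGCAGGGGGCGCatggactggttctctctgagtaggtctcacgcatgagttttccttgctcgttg
PRDM16, plus strand of chr1:3320052-3320171: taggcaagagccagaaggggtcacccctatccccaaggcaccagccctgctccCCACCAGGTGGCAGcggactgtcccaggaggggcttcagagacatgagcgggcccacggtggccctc
The last pair comes from the highest-scoring contact in which the promoter fragment also held a consensus and both pointed inward. It belongs to ROR2, a receptor for Wnt5a that is read from the minus strand.
ROR2 interacting fragment, plus strand of chr9:94537846-94537965: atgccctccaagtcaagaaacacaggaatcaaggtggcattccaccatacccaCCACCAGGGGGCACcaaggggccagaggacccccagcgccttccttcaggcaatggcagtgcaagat
ROR2 promoter fragment, minus strand of chr9:94712526-94712645: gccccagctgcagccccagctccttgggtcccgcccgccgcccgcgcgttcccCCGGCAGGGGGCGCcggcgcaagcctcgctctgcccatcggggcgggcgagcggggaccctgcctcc

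The 3 replicates listed 5346, 5223 and 5074 own gene body contacts (mean 5214 ± 136, SD, n = 3). They made up 8.32, 8.47 and 8.41% of each replicate's contacts within 1 Mb to fragments that were not promoter fragments. In all, 3337 of the 7406 were called in all 3 replicates (45.1%, 95% Wilson interval 43.9 to 46.2), 1563 in 2 replicates and 2506 in 1 replicate. Median scores were 6.68, 6.66 and 6.63, close to the lower limit of 5, and the scores of contacts shared by a pair of replicates had Spearman's rho between 0.714 and 0.729 across contacts, which are not independent of each other. Thus the replicates were close in number and score, while 2506 contacts rested on 1 replicate alone.

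For each replicate, the share of its contacts that was called in all 3 replicates was set beside that of the other contacts within 1 Mb. It was 64.0 ± 1.68% for own gene body contacts, and exceeded the share in other protein-coding genes by 12.8 ± 0.560 percentage points and that outside protein-coding genes by 9.60 ± 0.272 points (SD over 3 replicates), each in 3 of 3 replicates. For PIRs 200 to 400 kb away the differences were 13.2 ± 0.588 and 8.72 ± 0.736 points. Between 50 and 100 kb they had the opposite sign, at -0.724 ± 0.346 and -5.26 ± 2.12 points, so the difference was not one of all distances. Every one of these comparisons gave p = 0.25 in a two-sided exact sign-flip permutation test, the smallest that 3 replicates allow.

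The genome offered 321151 pairs of a promoter fragment and an available fragment of its own gene body, that is, a HindIII fragment within 1 Mb that was not a promoter fragment, was not next to the promoter fragment and had a length within the listed range. Of these pairs 2.31% were called in at least 1 replicate and 1.04% in all 3 replicates. Contacts ran from 3.835 to 999 kb, with a median of 194 kb and quartiles of 118 and 308 kb, so most own gene body contacts belonged to long genes. A contact was found for 1203 of 11313 genes with an available fragment (10.6%), and a contact in all 3 replicates for 700 genes (6.19%). Genes under 50 kb had one in 3.15% of cases, genes of 100 to 200 kb in 19.3%, genes of 200 to 400 kb in 34.3% and longer genes in 46.3%.

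Pooled over promoters, own gene bodies were contacted more often than the sequence over the mirrored distances on the other side of the promoters. The comparison took promoter fragments with the starts of 1 protein-coding gene and counted, for each, the available fragments downstream to the gene end and the fragments upstream over the same distance. Upstream fragments inside the gene were left out. The pool held 238691 available fragments downstream and 212641 upstream, from 11439 promoter fragments, not all of which had both sides. Downstream, 1.85, 1.83 and 1.77% of the available fragments were called in replicates 1, 2 and 3, against 0.446, 0.420 and 0.390% upstream. The ratio was 4.15, 4.35 and 4.55 (4.35 ± 0.199, SD, n = 3), above 1 in 3 of 3 replicates, with p = 0.25 in the two-sided exact sign-flip permutation test. The groups did not overlap. Most promoter fragments added nothing to this: of 7822 with available fragments on both sides, 6737 had no call on either side in any replicate. The call rate was higher downstream for 849 and higher upstream for 234.

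**Figure D1:**
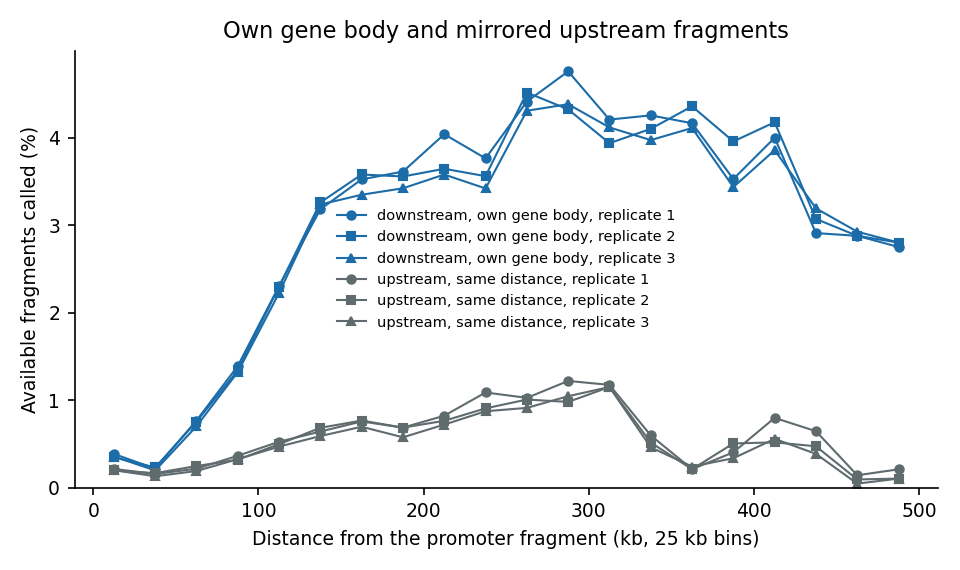
The share of available fragments called, in percent, is plotted against distance from the promoter fragment in 25 kb bins, for own gene body fragments downstream (blue) and for upstream fragments at the same distance (grey), with 1 line per replicate. The 3 downstream lines lie above the 3 upstream lines in every bin and are farthest apart beyond 100 kb.

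The ratio depended on distance. It was 1.64 ± 0.0380 for fragments up to 50 kb away, 3.72 ± 0.138 from 50 to 100 kb, 4.90 ± 0.229 from 100 to 200 kb, 4.96 ± 0.188 from 200 to 400 kb and 5.81 ± 0.907 from 400 kb to 1 Mb (mean ± SD, n = 3). The classes from 100 to 200 kb, from 200 to 400 kb and from 400 kb to 1 Mb overlapped in their spread. The upstream fragments lay partly in other protein-coding genes, and the ratio was 3.81 ± 0.255 against those and 4.75 ± 0.142 against upstream fragments outside genes. In all these sets the downstream share was higher in 3 of 3 replicates.

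Call rates were higher towards the gene end and lower past it. For genes whose end lay 100 kb to 1 Mb downstream, the stretch from promoter to gene end was cut into 10 equal parts. Part 1, next to the promoter, had 0.0776 ± 0.0385% of its available fragments called, part 5 had 1.91 ± 0.0652% and part 10, at the gene end, had 5.06 ± 0.0851% (mean ± SD, n = 3). At the mirrored upstream positions the same parts had 0.0558 ± 0.0134%, 0.430 ± 0.0318% and 0.677 ± 0.0503%. The sides thus lay within each other's spread in part 1 and were far apart in part 10.

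Across the gene end itself, the last 100 kb of the gene were compared with the 100 kb after it, for 2527 promoter fragments whose gene ended 100 to 900 kb downstream. Before the end 3.74, 3.65 and 3.62% of fragments were called in replicates 1, 2 and 3, and after it 2.11, 2.01 and 1.96%. Over the mirrored upstream fragments this was 6.44 ± 0.373 times as many before the end and 2.30 ± 0.0411 times as many after it, and the former was 2.80 ± 0.134 times the latter (mean ± SD, n = 3), above 1 in 3 of 3 replicates (p = 0.25, two-sided exact sign-flip permutation test). This compares averages over 100 kb. In the last 10 kb before the end 4.65 ± 0.0634% were called against 0.670 ± 0.0581% at the mirrored positions, and in the first 10 kb after it 3.20 ± 0.156% against 0.564 ± 0.0621%. The sides of the end thus differed less right next to it than over 100 kb, and the mirrored rate moved as well, from 0.571 ± 0.0389% over the whole window before the end to 0.881 ± 0.0365% over that after it.

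**Figure D2:**
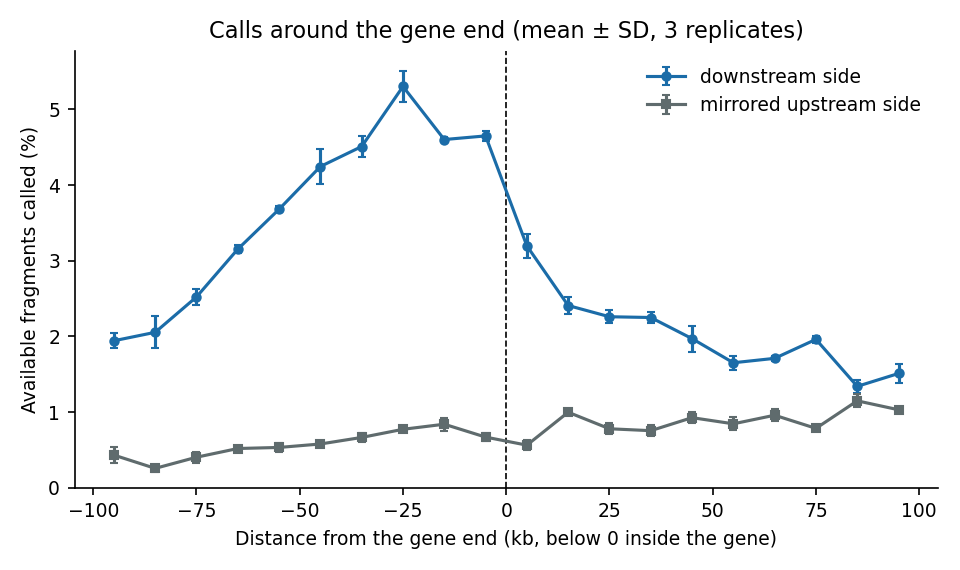
The share of available fragments called, in percent, is plotted in 10 kb bins against the distance from the gene end, with negative distances inside the gene; points are means of 3 replicates and bars are SD. The downstream side (blue) falls from 4.65% to 3.20% across the dashed line that marks the gene end and goes on falling, while the mirrored upstream side (grey) climbs from 0.257% at its lowest to 1.15% between 80 and 90 kb past the end, where the downstream side is at 1.34%.

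Most contacts lay in introns after the first, where most available fragments lay too. Each fragment was placed by its midpoint in the longest protein-coding transcript that starts in the promoter fragment: 74.4% of contacts fell in a later intron, 8.17% in the first intron, 5.44% in an exon and 11.9% inside the gene but outside that transcript. Of the available fragments 60.3% lay in later introns, 18.4% in the first intron, 3.46% in an exon and 17.9% outside the transcript. The call rate of first introns was 0.722, 0.686 and 0.664% in the 3 replicates against 2.04, 2.03 and 1.96% for later introns. The ratio of first to later introns was 0.344 ± 0.00891 (p = 0.25, two-sided exact sign-flip permutation test), with no overlap between the replicates.

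First introns lie nearer to the promoter than later ones, and the difference was tied to distance. Up to 50 kb the ratio of first to later introns was 0.858 ± 0.104, and from 50 to 100 kb it was 0.987 ± 0.0861, where the sign differed between replicates (p = 1, exact permutation test). From 100 to 200 kb the ratio was 0.471 ± 0.0476, from 200 to 400 kb 0.350 ± 0.0260 and beyond 400 kb 0.713 ± 0.107. With first introns weighted to the distances of later introns the ratio was 0.518 ± 0.0120. First-intron contacts were therefore less frequent at long distance and not distinguishable from later-intron ones between 50 and 100 kb.

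Fragments whose midpoint lay in an exon were called most often, at 2.90, 2.54 and 2.67% in the 3 replicates. Their rate over that of later introns was 1.35 ± 0.0856 in all and 1.98 ± 0.0772 from 100 to 200 kb, and it was above 1 in 3 of 3 replicates in each distance class. The called fragments also had a higher median GC content than the available ones, at 41.3 against 39.4%, and were shorter, at 1892 against 2375 bp. Among the fragments of lowest GC content the ratio of exon to later intron was 1.14 ± 0.117 and among those of highest GC content 1.36 ± 0.0330. The part of GC content in the difference was not tested.

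**Figure D3:**
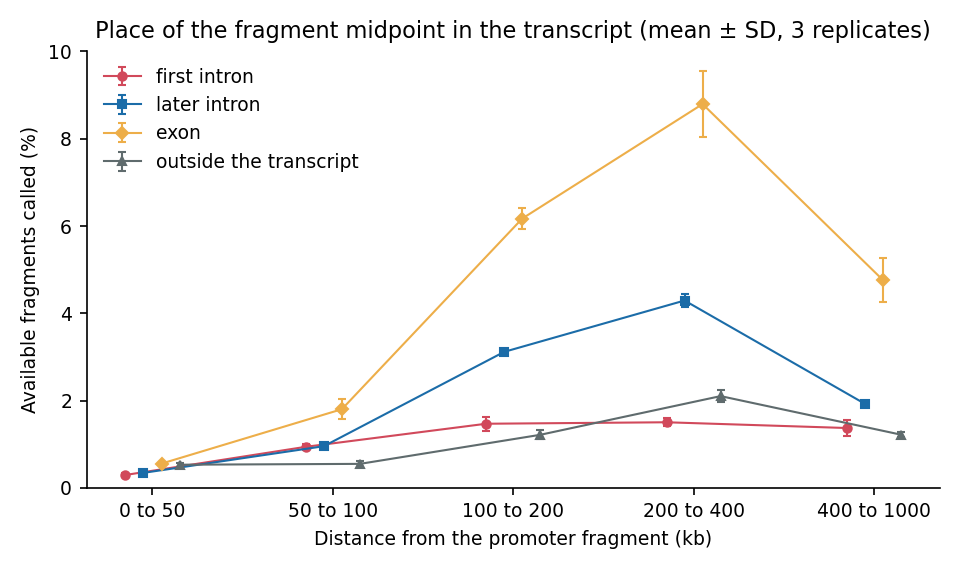
The share of available fragments called, in percent, is plotted for 5 classes of distance from the promoter fragment (kb), by the place of the fragment midpoint in the transcript; points are means of 3 replicates and bars are SD. Exon fragments (yellow) lie above later-intron fragments (blue) in every class, and first-intron fragments (red) fall below later-intron ones beyond 100 kb.

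Contacts were also made with gene body upstream of the promoter fragment, where a gene has a promoter inside its longest annotated extent. There 1.08, 0.964 and 0.977% of 32038 available fragments were called, against 1.73, 1.70 and 1.65% of 289113 fragments after the promoter. The 483 contacts of this kind included 187 called in all 3 replicates. Most contacts therefore ran in the direction of transcription, although most available fragments lay there too.

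Contacts came in runs and were concentrated in few genes. Of the 7406, 5330 (72.0%) had a called contact of the same promoter in a neighbouring fragment, and they formed 3387 runs, the longest of 39 fragments. Of the 1203 genes, 430 had 1 contact, the median was 3, and 93 genes had at least 20. The 100 genes with the most contacts in all 3 replicates held 40.3% of all contacts and 54.0% of those in all 3. Neighbouring fragments of 1 run share a promoter and are not independent measurements.

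PLCL1, which encodes a phospholipase C-like protein without catalytic activity, had the most contacts. Its promoter fragment (chr2:198668910-198670337) contacted 78, 78 and 78 fragments of the gene in the 3 replicates, 90 of 249 available in all, and 65 of them in all 3 replicates. The contacts ran from 154 to 513 kb, although the gene is 768 kb long, and none of 197 mirrored upstream fragments was called, a count of 0 that allows an upstream rate of up to 1.52% by counting error alone. Its highest-scoring PIR, chr2:199164262-199165881, lay 495 kb from the promoter, with scores of 39.32, 44.85 and 35.44. A further group of high scores lay nearer to the promoter, and the last stretch of the gene held no call.

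FHOD3 and RYR2 act in the heart muscle cell itself. FHOD3 (chr18:33877676-34360183), a formin that assembles actin in the sarcomere, had 61, 57 and 63 contacts in the 3 replicates, 72 of 113 available, with 49 in all 3. Its contacts ran from 71.2 to 464 kb and none of 116 mirrored upstream fragments was called, which allows a rate of up to 2.59%. RYR2 (chr1:237205484-237997288), the calcium release channel of the cardiac sarcoplasmic reticulum, had 59, 63 and 41 contacts, 75 of 226 available, with 32 in all 3 replicates. Replicate 3 was the low one for RYR2, and its contacts, from 107 to 539 kb, left the last part of this 792 kb gene without a call. In contrast to PLCL1 and FHOD3, RYR2 also had upstream calls, in 34 of 206 mirrored fragments.

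The other 7 of the 10 genes with the most contacts in all 3 replicates were of mixed function. LDLRAD4, a membrane inhibitor of TGF-beta signalling, had 59, 51 and 55 contacts in the 3 replicates, and 14 of 25 fragments in the 100 kb after the gene were called as well. FRAS1, a basement membrane protein, had 69, 73 and 69 contacts. MGAT5, a Golgi glycosyltransferase, had 41, 53 and 41, and 16 of 97 mirrored upstream fragments were called. Replicates thus differed by few contacts in FRAS1 and by more in MGAT5.

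KCNMA1, the pore of the large-conductance calcium-activated potassium channel, had 36, 44 and 42 contacts. RYR3, a further ryanodine receptor, had 48, 42 and 38. CARMIL1, which regulates the capping of actin filaments, had 36, 40 and 39, and JMJD1C, of the JmjC histone demethylase family, had 36, 47 and 39 from 2 promoter fragments. In 7 of the 10 genes no mirrored upstream fragment was called, and in 6 at least 1 fragment in the 100 kb after the gene was. Together the 10 genes held 647 contacts, 8.74% of all.

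**Figure D4:**
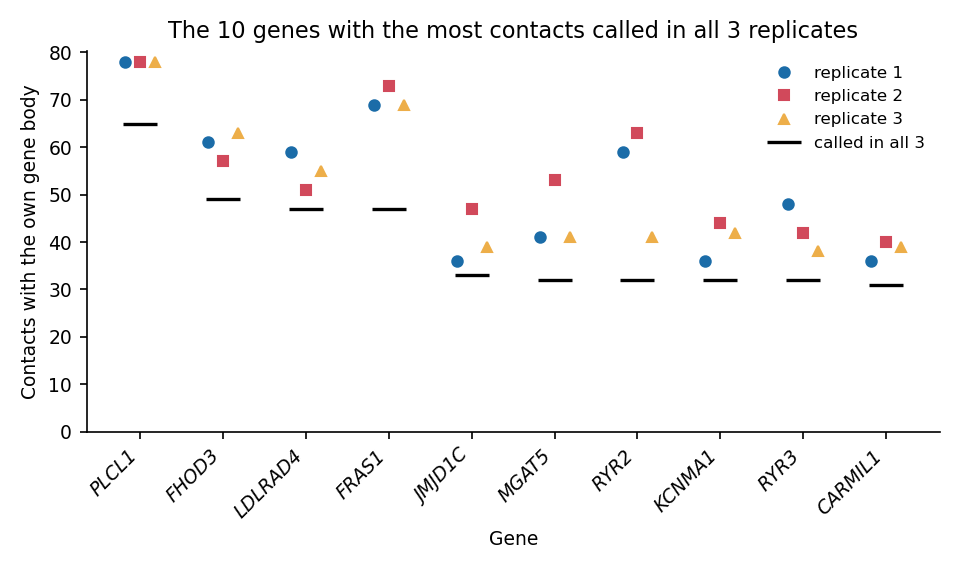
The number of contacts with the own gene body is plotted for the 10 genes with the most contacts called in all 3 replicates; coloured points are replicates 1 to 3 and the black bar is the number called in all 3. PLCL1 has 78 in each replicate, and the points of RYR2 are spread the most, from 41 to 63.

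RGS3 had the highest mean score of the contacts that no replicate lacked. It encodes a regulator of G-protein signalling, and its promoter contacted chr9:116349842-116351186 in intron 21, 144 kb away, with scores of 54.53, 45.14 and 36.7 (45.5 ± 8.92, SD, n = 3). A PLCL1 contact was next, followed by one of DSCAML1, a cell adhesion protein, 373 kb from its promoter with scores of 42.45, 33.76 and 42.63. CORIN, the protease that activates atrial natriuretic peptide, had a contact in intron 4 at chr4:47703743-47707666, 136 kb away, with scores of 38.29, 35.32 and 36.02. The replicates of CORIN were close to each other, whereas those of RGS3 fell over a wide range in which replicate 1 was the highest. The fifth was again in PLCL1, at 494 kb and a mean of 36.1 ± 1.66.

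Among contacts called in all 3 replicates, the 5 longest were in NKAIN2, which encodes a protein that binds the sodium pump. They lay between 982 and 999 kb from the promoter, in introns 4 and 5, near the limit of 1 Mb set for this description, in a gene of 1022 kb. The one at 998 kb scored 25.34, 19.49 and 31.94 and the one at 982 kb scored 28.54, 22.13 and 18.41. The 5 lay 21.8 to 38.5 kb before the gene end. PRKG1, a cyclic GMP-dependent kinase, had a contact of 995 kb that was not among them because it was not called in every replicate.

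**Figure D5:**
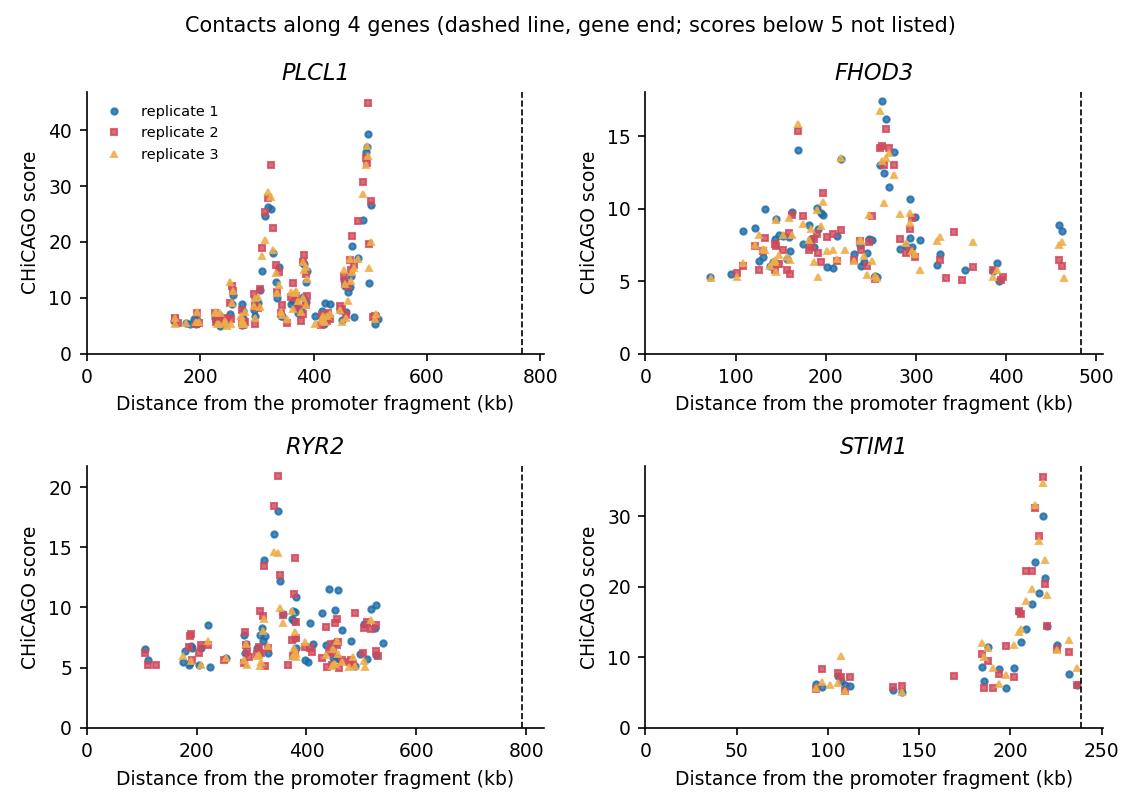
CHiCAGO scores of own gene body contacts in replicates 1 to 3 are plotted against distance from the promoter fragment (kb) for PLCL1, FHOD3, RYR2 and STIM1, with the gene end as a dashed line; scores below 5 were not listed. The contacts of PLCL1 and RYR2 stop well before the gene end, at 513 and 539 kb, and those of STIM1 reach it.

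Of the listed sarcomere and Z-disc genes, 6 of 28 with an available fragment had a contact and 4 had one in all 3 replicates, beside 10.6 and 6.19% of all genes. Of those at least 100 kb long it was 3 of 11, beside 27.4% of all genes of that length. PDLIM5, a PDZ-LIM protein of the Z-disc, had 29, 25 and 30 contacts in the 3 replicates, 35 of 63 available, and 18 in all 3. MYBPC3, cardiac myosin-binding protein C, is a short gene, and all 4 of its available fragments were called in some replicate and 2 in all 3. MYH7, the slow cardiac myosin heavy chain, had its 1 available fragment called in all 3 replicates, and MYH6, the fast one, had its own in replicate 1 alone. Mirrored upstream fragments were called as well in PDLIM5 (11 of 64) and MYH7 (5 of 6), and not in MYBPC3 (0 of 2). TTN, the giant spring protein of the sarcomere, had no contact with any of its 126 available fragments, although its promoter made 7 other contacts within 1 Mb with fragments outside promoters; like the other genes without a contact it was named after its values were seen.

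Calcium-handling genes had a contact in 7 of 21 cases, and in all 3 replicates in 4, beside 10.6 and 6.19% of all genes. Of those at least 100 kb long it was 6 of 12, beside 27.4%. All of these 12 were longer than 200 kb. Of all genes of 200 to 400 kb 34.3% had a contact, and of longer ones 46.3%. STIM1, the calcium sensor of the endoplasmic reticulum, had 26, 28 and 26 contacts, 29 of 54 available, and 24 in all 3 replicates. Its highest-scoring PIR, chr11:4093385-4094186 in intron 6, lay 218 kb from the promoter and scored 30, 35.54 and 34.7. CACNA2D1, an auxiliary subunit of voltage-gated calcium channels, had 16, 15 and 13 contacts, and CACNA1D, a pore subunit, 10, 10 and 6. JPH2, which tethers the sarcoplasmic reticulum to the cell membrane, had 3, 1 and 5 contacts and none in all 3 replicates, so its 8 contacts had little support among replicates. SLC8A1 and ITPR2, both long, had no call in 188 and 169 available fragments, all of them downstream of the promoter fragment. CACNA1C had none in 184, but only 23 of these lay downstream of its 1 listed promoter fragment. Its gene body was thus mostly looked at from a promoter fragment inside the gene.

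Among other ion channels and connexins 5 of 24 genes had a contact, and 3 of the 10 that are at least 100 kb long, beside 10.6% of all genes and 27.4% of those of that length. CACNA1G, a T-type calcium channel, had 4, 4 and 3 contacts of 6 available fragments, and CACNA1H, another T-type channel, had none of 4. GJA5, a connexin of atrial and conduction tissue, had 1 contact in all 3 replicates, 10.2 kb from its promoter with scores of 5.53, 6.14 and 6.29. ANK2, an anchor of membrane proteins, had 1, 0 and 1 contacts of 171 available. These counts are small, and KCND2 and KCNQ1 had none.

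Cardiac transcription factors had a contact in 10 of 24 cases and one in all 3 replicates in 7, beside 10.6 and 6.19% of all genes. ZFPM2, a cofactor of GATA factors, had 26, 23 and 29 contacts, PRDM16 18, 17 and 15, TEAD1 21, 13 and 19, and FOXP1 15, 15 and 12. GATA4, a zinc-finger factor needed for heart formation, had 10, 11 and 11 contacts, and 12 of its 13 available fragments were called. The best GATA4 contact, in intron 2 at 28.1 kb, scored 15.09, 14.26 and 14.33. TBX5, a T-box factor of the early heart, had 1 contact in all 3 replicates, 16.9 kb away in intron 6, with scores of 5.5, 5.2 and 5.71, just inside the limit of the listing. Mirrored upstream fragments were called as well in TEAD1 (8 of 68) and GATA4 (5 of 18). They were not called in PRDM16 (0 of 39), FOXP1 (0 of 189) or TBX5 (0 of 12). Of the 10 genes on this list that are at least 100 kb long 7 had a contact, beside 27.4% of all genes of that length.

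Cell junction and dystrophin complex genes had a contact in 5 of 22 cases, and in 4 of the 13 that are at least 100 kb long, beside 10.6% of all genes and 27.4% of those of that length. DMD, the dystrophin gene, had 15, 17 and 12 contacts from 390 to 863 kb, 21 of 688 available. LAMA2, a laminin chain bound by the dystrophin complex, had 2, 4 and 3. Cyclic nucleotide and kinase genes, of which most are long, had a contact in 12 of 18 cases, and in all 3 replicates in 9. Of those at least 100 kb long it was 12 of 17, beside the same 27.4%, and the list's median length was 446 kb. Of all genes longer than 400 kb 46.3% had a contact. GRK5, a kinase of G-protein-coupled receptors, had 9, 16 and 15 contacts, with replicate 1 the low one. PDE10A had 11, 9 and 11, PRKCA 9, 6 and 7, and PRKCE 6, 7 and 5. Only 6 of the 13 PDE10A contacts lay downstream of the promoter fragment, against 11 of 11 for PRKCA and 8 of 8 for PRKCE.

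The lists for other cell types were short. None of 10 fibroblast and matrix genes had one, with 198 available fragments in all, and the 1 gene of 8 in the endothelial list was FLT1, a VEGF receptor, with 2, 2 and 3 contacts. LMOD1 alone of 3 smooth muscle genes had a contact. These lists hold too few genes to be set against the 10.6% of all genes. LIN28B, an RNA-binding protein of pluripotent cells, was the only 1 of 9 listed pluripotency genes with an available fragment, so the others could have no contact. It had 12, 10 and 10 contacts, 13 of 71 available (18.3%, beside 2.29% over all genes), and 8 in all 3 replicates. Contacts do not measure expression, so these counts do not give the makeup of the cultures.

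A list of long neuronal and fragile-site genes, with a median length of 1375 kb, had a low share of its fragments called. It had a contact in 11 of 24 cases (45.8%), beside 46.3% of all genes longer than 400 kb. Of its available fragments 0.635% were called, beside 2.29% over all genes, 3.61% in genes of 200 to 400 kb and 2.31% in genes longer than 400 kb. These sets were not matched to the list in length, and the part of length in the low share was not tested. In genes longer than 1 Mb the far end can lie beyond the distance limit, and was then not counted. RBFOX1, a splicing regulator, had 10, 9 and 4 contacts and CDH13, a cadherin, 5, 7 and 6. The 5 longest listed genes with an available fragment and without a contact were CNTNAP2, PTPRD, EYS, ROBO2 and NRXN3. In CNTNAP2, PTPRD and ROBO2 all available fragments lay downstream of the promoter fragment. In EYS only 24 of 326 did, since its 1 listed promoter fragment lies inside the gene. The promoters of CNTNAP2, PTPRD and ROBO2 made no contact at all within 1 Mb to a fragment outside promoters, and those of EYS and NRXN3 made 4 and 3.

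The PIRs of own gene body contacts were mostly seen by 1 promoter: 59.4% of 7276 had no contact with a further promoter fragment at any distance, beside 52.3% for PIRs in other protein-coding genes and 56.4% outside genes. At the other end, 1 PIR was shared by 36 promoter fragments. In 75 genes, contacts came from at least 2 of the gene's own promoter fragments. These 3 shares describe sets that overlap in their fragments and were not tested.

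The CTCF consensus was more frequent in the contacted fragments than in the available gene body fragments. The search used the published core consensus on both strands, and 1.13% of the available gene body fragments held it, against 2.47% of own gene body contacts and 3.57% of those called in all 3 replicates. Contacts in other protein-coding genes held it in 3.17% of cases and those outside genes in 4.09%, so as counted it was least frequent in own gene body contacts among the contacts. These 3 shares were not set at equal fragment length, and a fragment contacted by several promoters counted for each. Among available gene body fragments the share rose with length, from 0.168% up to 1000 bp to 6.62% above 12000 bp. Within each of 5 classes of fragment length the share was higher in own gene body contacts than in the available fragments. A match is a description of these letters and not a measured site.

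The direction of the consensus was uneven. Of 182 contacts whose fragment held it in 1 direction alone, it pointed back to the promoter in 146 (80.2%, 95% Wilson interval 73.8 to 85.4), as in ANKRD6, PLCL1 and TCF7L1 above, and away in the remainder, as in ATXN1 and PRDM16. Over the available gene body fragments 50.4% pointed back. The replicates gave 81.9, 81.4 and 84.6% (82.6 ± 1.74, SD, n = 3; p = 0.25 against an even split, two-sided exact sign-flip permutation test). Of the contacts called in all 3 replicates 103 of 119 pointed back (86.6%, 95% Wilson interval 79.3 to 91.6).

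The share that pointed back was not particular to own gene bodies. It was 82.1 ± 0.560% for contacts in other protein-coding genes and 86.5 ± 0.600% outside genes, a difference of 0.57 ± 2.21 points from the former (p = 1) and -3.84 ± 1.96 points from the latter (p = 0.25, both exact sign-flip permutation tests over 3 replicates). The promoter fragment itself mostly held no consensus: in 130 of the 146 contacts it had none, in 13 it had one that pointed towards the PIR, as in ROR2, and in 3 one that pointed away. The ROR2 contact scored 18.18, 16.47 and 17.34 at 174 kb. The inward pair on both fragments was thus rare, and the consensus search covers the whole promoter fragment and not its start site alone.

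Of the contacts shown as sequences, that of ANKRD6 lay 177 kb from its promoter and scored 33.5, 30.26 and 29.61. The PLCL1 fragment at 487 kb scored 23.89, 30.69 and 28.56, within the run that held the gene's highest scores. SPATS2 scored 28.54, 24.7 and 29.31 at 149 kb, TCF7L1 29.17, 25.61 and 20.93 at 160 kb, and SLIT3 25.94, 26.54 and 22.97 at 312 kb. These were chosen for their scores. Of the contacts in which the consensus pointed away, ATXN1 scored 11.63, 11.76 and 12.49 and PRDM16 7.7, 6.49 and 13.73, and the scores of the directions were not compared.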

How the data were processed

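PCHi-C libraries of 3 replicates of hESC-CMs were analysed. The authors mapped reads with HiCUP to GRCh37 and called contacts with CHiCAGO at default settings (versions not given in the sources used here); the deposited files list, per replicate and for the replicates merged, pairs of HindIII fragments with their score, at least 5. How many read pairs lie behind a score is unknown, and a contact that is not listed had a lower score and not 0. The merged listing is the authors' pooled value and served as an alternative.

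The listed fragments were matched to the 837157 HindIII fragments of GRCh37 (1 had no match), and genes came from GENCODE version 44 lifted to GRCh37. A promoter fragment is any fragment in the first column of a replicate, so captured promoters without any call are missing. Fragments were available when 151 to 39450 bp long, the range of the listed ones. Call rates are called over available fragments. Means are over replicates, and exact sign-flip permutation tests over the 3 replicates were two-sided. Wilson intervals (95%) cover counting error only. Scripts were tested on simulated data (Python 3.11.15, numpy 2.4.6, scipy 1.17.1).

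Named genes were the 10 with the most contacts in all 3 replicates, the 5 contacts of highest mean score and the 5 longest among those called in all 3, genes on 11 lists, and the 5 longest listed genes with an available fragment and no contact. The members and lists were chosen with earlier results of these data known. Alternatives were other score limits, leaving out each replicate, the merged calls and narrower annotations. Some listed genes and 1 sequence are not reported here.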

Additional observations from a re-analysis of the deposited data

Results flagged for a closer look

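The calls on the merged replicates, which no comparison above used, held 10150 own gene body contacts, and 3486 of these were listed in no single replicate (34.3%). Their median merged score was 5.65, against 11.28 for contacts called in all 3 replicates. Of the 3337 contacts called in all 3 replicates 3336 were also listed on the merged replicates, and of the 2506 called in 1 replicate 73.6% were. Which of the additional contacts a further replicate would list was not tested.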

How the results depend on the processing

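Among the 69 recomputed values, the numbers of contacts, their share within 1 Mb and their share in all replicates have no direction. None of the other recomputed values changed direction. The ratio of downstream to upstream calls, the ratio before over after the gene end, the ratio of first to later introns and the share of CTCF consensus that points back stayed on their side of an even split under each alternative run, but their sizes moved. From all calls to a score of at least 7 and of at least 10, the first went from 4.08 to 4.90 and 5.63, the second from 2.66 to 3.03 and 3.65, the third from 0.360 to 0.245 and 0.193, and the last from 80.2 to 84.6 and 90.6%. The intron ratio was 0.422 on the merged replicates and 0.541 when weighted for distance. The number of contacts was 3252 at a score of at least 7 and 1192 at a score of at least 10, and 10150 on the merged replicates. The share of contacts within 1 Mb that lay in the own gene body, 7.51%, was 8.28% at a score of at least 7, 8.56% at a score of at least 10, 8.80% on the merged replicates, 7.40% with the whole interacting fragment inside the gene, 7.12% with protein-coding transcripts alone and 7.65% for fragments with no annotated transcript start. Leaving out 1 replicate at a time gave 7.81 to 7.85%, and the share called in every remaining replicate was then 58.0 to 60.0%, since it asked for 2 replicates in place of 3. The merged calls give no share over replicates. Leaving out readthrough genes, leaving out the 10 genes with the most contacts, and weighting introns by distance were chosen after seeing the data. No paired analysis was possible because all samples belong to 1 condition. A p of 0.25 is the smallest that 3 replicates allow and says nothing about stability.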
